A study of Homo sapiens with 9 samples.

Results

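The genes described here are 10 growth factor and co-receptor genes of the platelet-derived growth factor (PDGF), vascular endothelial growth factor (VEGF) and ephrin systems. They were chosen by family and symbol, with the levels and fold changes of these libraries already known. They are PDGFA, PDGFB, PDGFC, PDGFD, VEGFB, VEGFC, PGF, NRP1, NRP2 and EFNA1, out of a table of 56809 genes. RNA was sequenced from 9 libraries of MDA-MB-468, an established human triple-negative breast adenocarcinoma line, each prepared from 200000 cells. All 9 carried the lentiviral hairpin vector pSicoR, either empty (control) or coding for 1 of 2 short hairpins against LMO2 (shLMO2-1 or shLMO2-2). Each group had 3 libraries. LMO2 is a LIM-domain protein that bridges DNA-binding factors in transcription complexes and is known from blood and blood vessel formation. The time after infection, any selection and whether the libraries came from separate cultures are not given in the sources used here, so the p-values measure only the spread between these libraries.

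PDGFs and VEGFs are secreted dimers that act through receptor tyrosine kinases. PDGFs are best known for recruiting pericytes and fibroblasts, and VEGFs for the growth of blood and lymph vessels. PDGFA and PDGFB are cut inside the cell, whereas PDGFC and PDGFD are secreted with a CUB domain that must be removed by proteases before they bind a receptor. Neuropilins are co-receptors shared by VEGFs and class 3 semaphorins, and ephrins are membrane-held ligands of the Eph receptors.

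Library totals ranged from 15494486 to 23069456 estimated counts. LMO2 had 4, 35 and 19 counts in the control libraries, 2, 1 and 6 under shLMO2-1, and 1, 4 and 3 under shLMO2-2. LMO2 failed the filter on low counts, and in the fit with no filter it was lower under both hairpins, at a log2 fold change of -2.43 (adjusted p = 0.0253) for shLMO2-1 and -3.01 (adjusted p = 0.00296) for shLMO2-2. Control replicate 1 overlapped the hairpin libraries in LMO2. That library also stood apart from the other controls on the first principal component of all tested genes (-42.6 against -18.0 and -20.5), so results are also given without it. All 12 breast epithelial markers examined were measured above the filter on low counts. Their summed level in CPM (a gene's counts per 1000000 of the scaled library total) was 15540 to 16160 in control. It was 17570 to 18850 under shLMO2-1 and 17180 to 19300 under shLMO2-2, so every hairpin library was above every control library. For the mean of both hairpins, 5 of the 12 were higher and 1 lower at an adjusted p under 0.05 in edgeR's quasi-likelihood test. Of all tested genes, 6.46% were higher and 5.92% lower at that threshold. For shLMO2-1 alone 2 of the 12 were higher and 2 lower, beside 4.54% and 3.88% of all tested genes. For shLMO2-2 alone 3 were higher and 1 lower, beside 4.94% and 4.03%. EGFR was the largest part of the sum, at means of 5472, 7507 and 5985 CPM in control, shLMO2-1 and shLMO2-2. Mean levels of EPCAM, CDH1 and KRT14 were lower under both hairpins, and those of KRT5, KRT6A and KRT17 under shLMO2-1 alone. The rest were higher under both. The 12 endothelial markers summed to 13.4 to 18.5 CPM in control, 18.3 to 23.4 under shLMO2-1 and 13.9 to 16.4 under shLMO2-2, with EMCN and PLVAP at 0 throughout. Without KDR the other 11 summed to 8.56 to 9.89, 7.31 to 10.7 and 6.64 to 8.96 CPM, so that the groups of shLMO2-1 and control overlapped. The 12 pericyte or fibroblast markers summed to 14.6 to 18.5, 16.7 to 21.0 and 17.5 to 20.1 CPM, with COL3A1 and LUM at 0 throughout. The part of these markers in the results was not tested. In bulk RNA, fewer cells of a type and less RNA per cell cannot be told apart.

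PDGFC was the one gene of the 10 called as higher under both hairpins. Its level was 1.75 times that of control under shLMO2-1 and 1.33 times under shLMO2-2. PGF and NRP1 also had log2 fold changes above 0 under both hairpins, but neither was called. For shLMO2-1 and shLMO2-2 these were 0.70 and 0.39 for PGF, and 0.14 and 0.27 for NRP1. EFNA1 fell to 0.80 times its control level under shLMO2-1 and 0.81 times under shLMO2-2, calls that lay close to the threshold. PDGFD, at 6 to 13 counts a library in control, had 1 or 2 counts in every hairpin library. PDGFA, PDGFB, VEGFB, PGF, NRP1 and NRP2 did not pass the test against control, and VEGFC had no count in any library. Of the 10 genes, 8 passed the filter on low counts. Of these 8, 2 were called against control for each hairpin, PDGFC as higher and EFNA1 as lower. Of all 14708 tested genes, 8.42% were called for shLMO2-1 (4.54% higher, 3.88% lower) and 8.97% for shLMO2-2 (4.94% higher, 4.03% lower). For the mean of both hairpins PDGFC and EFNA1 were called again, beside 12.4% of all tested genes (6.46% higher, 5.92% lower). A call means an adjusted p under 0.05 in edgeR's quasi-likelihood test over all tested genes. Since the choice of genes used these libraries, their calls are a description and not independent evidence. The hairpins share the control libraries, so their comparisons with control are not independent of each other. The median log2 fold change of the 8 genes was -0.01 for shLMO2-1 and 0.02 for shLMO2-2, beside 0.00 for all tested genes in both.

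**Figure D1:**
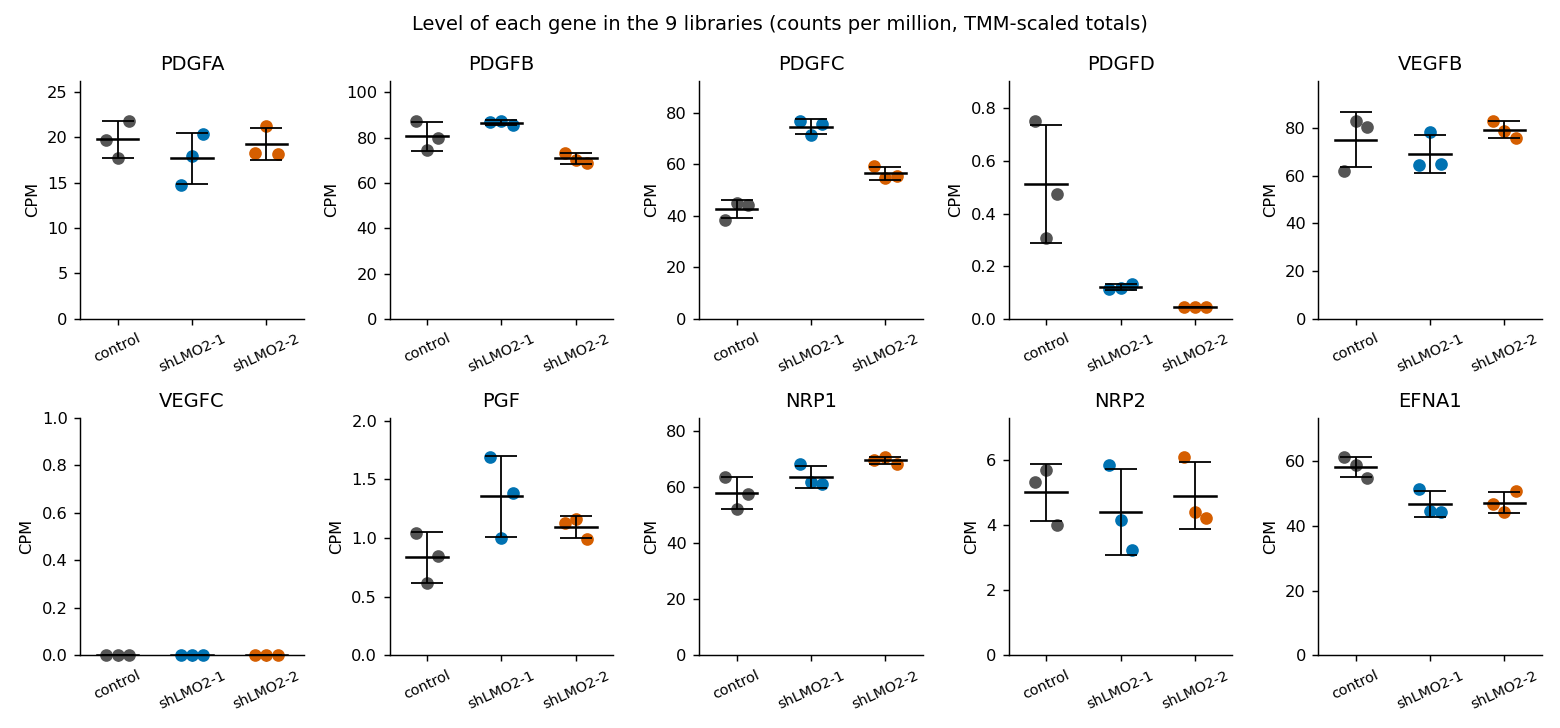
Level of each gene in CPM, 1 panel per gene with its own axis from 0, with 1 point per library and the mean ± SD of control, shLMO2-1 and shLMO2-2. PDGFC is above the controls in all 6 hairpin libraries (54.6 to 77.0 CPM against 38.5 to 45.0), and EFNA1 is below them in all 6 (44.3 to 51.3 against 54.9 to 61.2).

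PDGFC codes for a ligand of PDGF receptor alpha. The gene lies on chromosome 4 at 156760454 to 156971394, minus strand, in GENCODE 29 (GRCh38), where 3 genes on the opposite strand overlap it (AC092608.1, AC092608.2 and AC092608.3). Since the use of strand in counting is not given in the sources used here, reads from these could not be told from its own. In the control libraries 1, 2 and 3 PDGFC was at 38.5, 45.0 and 44.0 CPM. Under shLMO2-1 it was at 77.0, 71.4 and 75.6 CPM, and under shLMO2-2 at 59.5, 54.6 and 55.6 CPM. All 3 groups were separate, with control lowest and shLMO2-1 highest. The log2 fold change was 0.81 (SE 0.0773, adjusted p = 0.000217) for shLMO2-1 and 0.41 (SE 0.077, adjusted p = 0.00938) for shLMO2-2. It was called in all 16 alternative fits of each comparison, and without control replicate 1 the values were 0.74 and 0.34. PDGFC was lower under shLMO2-2 than under shLMO2-1 by a log2 difference of -0.40 (SE 0.0761, adjusted p = 0.0391). It was the 1 member called in that comparison, where 0.768% of tested genes were called. That last call was lost without control replicate 3 (adjusted p = 0.0713) and without any 1 of the 6 hairpin libraries (adjusted p between 0.0883 and 0.189), at log2 differences of -0.44 to -0.38.

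PDGFD codes for a ligand of PDGF receptor beta. It lies on chromosome 11 at 103907186 to 104164379, minus strand, with AP003043.1 and DDI1 on the opposite strand inside its span. It had 13, 6 and 9 counts in control, 2, 2 and 2 under shLMO2-1, and 1, 1 and 1 under shLMO2-2. Every hairpin library was below every control library. Summed over libraries and set against the totals, the ratio to control was 0.239 (95% Poisson interval 0.0808 to 0.587) for shLMO2-1 and 0.0893 (0.0174 to 0.289) for shLMO2-2, intervals that cover counting error only. PDGFD failed the filter on low counts. In the fit with no filter, over 26128 genes, its adjusted p was 0.272 for shLMO2-1, where 6.43% of genes were called, and 0.0315 for shLMO2-2, where 7.25% were.

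PDGFB, a ligand of both PDGF receptors, lies on chromosome 22 at 39223359 to 39244751, minus strand, with AL031590.1 opposite. It was at 87.6, 74.7 and 79.9 CPM in control, at 87.1, 87.5 and 85.6 under shLMO2-1, and at 73.4, 70.3 and 68.9 under shLMO2-2. The shLMO2-2 libraries were below all others, and those of shLMO2-1 overlapped control. The log2 fold change was 0.10 (SE 0.0694, adjusted p = 0.401) for shLMO2-1 and -0.19 (SE 0.0693, adjusted p = 0.119) for shLMO2-2. Between the hairpins it was -0.29 (SE 0.0694, adjusted p = 0.104). PDGFA, a ligand of PDGF receptor alpha on chromosome 7 at 497258 to 520296, minus strand, was at 19.7, 17.7 and 21.8 CPM in control. It was at 14.7, 17.9 and 20.4 CPM under shLMO2-1 and at 18.2, 21.3 and 18.2 CPM under shLMO2-2. All 3 groups overlapped, with a log2 fold change of -0.16 (SE 0.133, adjusted p = 0.506) for shLMO2-1 and -0.04 (SE 0.131, adjusted p = 0.887) for shLMO2-2.

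The share of PDGFC in the summed counts of the 4 PDGF genes was 29.7% ± 3.21 (SD, n = 3) in control. It was 41.7% ± 1.34 (SD, n = 3) under shLMO2-1 and 38.6% ± 1.06 (SD, n = 3) under shLMO2-2, with every hairpin library above every control library. PDGFB took 56.2% ± 3.07, 48.4% ± 1.18 and 48.3% ± 0.243 of the same counts. The 4 genes summed to 144 ± 4.96 CPM in control, 179 ± 2.35 under shLMO2-1 and 147 ± 4.22 under shLMO2-2 (SD, n = 3), so the sum was higher in shLMO2-1 alone and the shLMO2-2 libraries overlapped control. These shares count reads and so weigh a long transcript more than a short one.

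**Figure D2:**
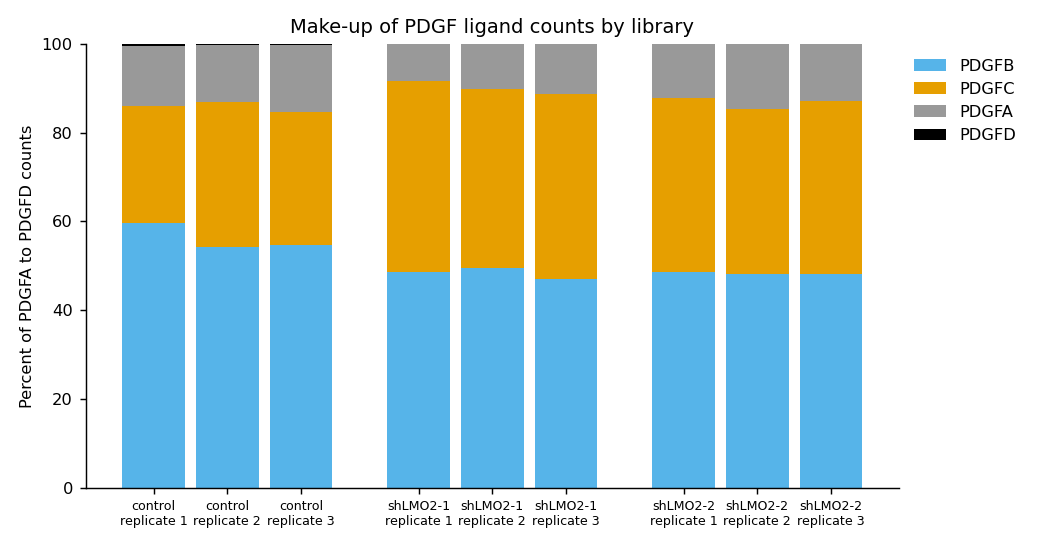
Stacked share of PDGFA, PDGFB, PDGFC and PDGFD in their summed counts, in percent, for each of the 9 libraries. PDGFC makes up 26.3% to 32.7% in the control libraries and 37.3% to 43.0% in the hairpin libraries, and PDGFD is under 1% throughout.

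VEGFB, a ligand of FLT1, lies on chromosome 11 at 64234538 to 64238793, plus strand. It was at 62.2, 83.0 and 80.5 CPM in control, at 64.5, 78.3 and 64.9 under shLMO2-1, and at 83.2, 79.0 and 75.9 under shLMO2-2. The 3 groups overlapped, and control replicate 1 was the lowest of the 9 libraries. The log2 fold change was -0.12 (SE 0.113, adjusted p = 0.566) for shLMO2-1 and 0.08 (SE 0.112, adjusted p = 0.723) for shLMO2-2. PGF, placental growth factor and also a ligand of FLT1, lies on chromosome 14 at 74941834 to 74955784, minus strand. It had 18, 12 and 16 counts in control, 30, 17 and 21 under shLMO2-1, and 26, 25 and 22 under shLMO2-2, with overlap between groups in CPM. PGF did not pass the test for shLMO2-1 (log2 fold change 0.70, SE 0.343, adjusted p = 0.240) or for shLMO2-2 (0.39, SE 0.341, adjusted p = 0.523). VEGFC, the ligand of FLT4 that drives lymph vessel growth, had 0 counts in all 9 libraries. A count of 0 allows up to 3 counts, or 0.13 to 0.198 CPM in a library and 0.0174 CPM over all 9.

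NRP1, the neuropilin most used by VEGFA and SEMA3A, lies on chromosome 10 at 33177492 to 33336262, minus strand, and overlaps AL121748.2 on the opposite strand and RN7SL398P on the same strand. It was at 63.9, 52.4 and 57.5 CPM in control, at 68.3, 61.9 and 61.1 under shLMO2-1, and at 69.8, 70.7 and 68.5 under shLMO2-2. All shLMO2-2 libraries were above all others, and shLMO2-1 overlapped control. The log2 fold change was 0.27 (SE 0.0809, adjusted p = 0.0662) for shLMO2-2 and 0.14 (SE 0.0816, adjusted p = 0.332) for shLMO2-1. For shLMO2-2 it became a call without control replicate 1 (0.33, adjusted p = 0.0221), with DESeq2 (adjusted p = 0.0357) and with no filter (adjusted p = 0.0466). NRP2, a co-receptor of VEGFC and SEMA3F, lies on chromosome 2 at 205681990 to 205798133, plus strand, with AC007362.1 opposite. It was at 5.33, 5.69 and 4.02 CPM in control, at 5.85, 4.16 and 3.23 under shLMO2-1, and at 6.09, 4.41 and 4.22 under shLMO2-2. The groups overlapped, at a log2 fold change of -0.18 (SE 0.245, adjusted p = 0.717) for shLMO2-1 and -0.03 (SE 0.240, adjusted p = 0.953) for shLMO2-2. NRP1 made up 92.0% ± 1.66, 93.6% ± 1.43 and 93.4% ± 1.26 of the neuropilin counts in control, shLMO2-1 and shLMO2-2 (SD, n = 3).

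EFNA1, an ephrin tethered to the membrane by a lipid anchor that binds EphA receptors such as EPHA2, lies on chromosome 1 at 155127460 to 155134857, plus strand. It was at 61.2, 58.7 and 54.9 CPM in control, at 51.3, 44.7 and 44.3 under shLMO2-1, and at 46.8, 44.3 and 50.7 under shLMO2-2. All 6 hairpin libraries were below the 3 controls, and the hairpins overlapped each other. The log2 fold change was -0.32 (SE 0.0847, adjusted p = 0.0422) for shLMO2-1, -0.30 (SE 0.084, adjusted p = 0.0478) for shLMO2-2 and -0.31 (SE 0.0722, adjusted p = 0.0190) for their mean. The calls for single hairpins were lost in 9 of 16 alternative fits each, with adjusted p up to 0.147 for shLMO2-1 and 0.159 for shLMO2-2, among them without each control library in turn. They were also lost without shLMO2-1 replicate 2 or 3 and without each shLMO2-2 library. The call for the mean was lost without control replicate 2 (-0.30, adjusted p = 0.0523) and kept without control replicate 1 (-0.28, adjusted p = 0.0419).

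**Figure D3:**
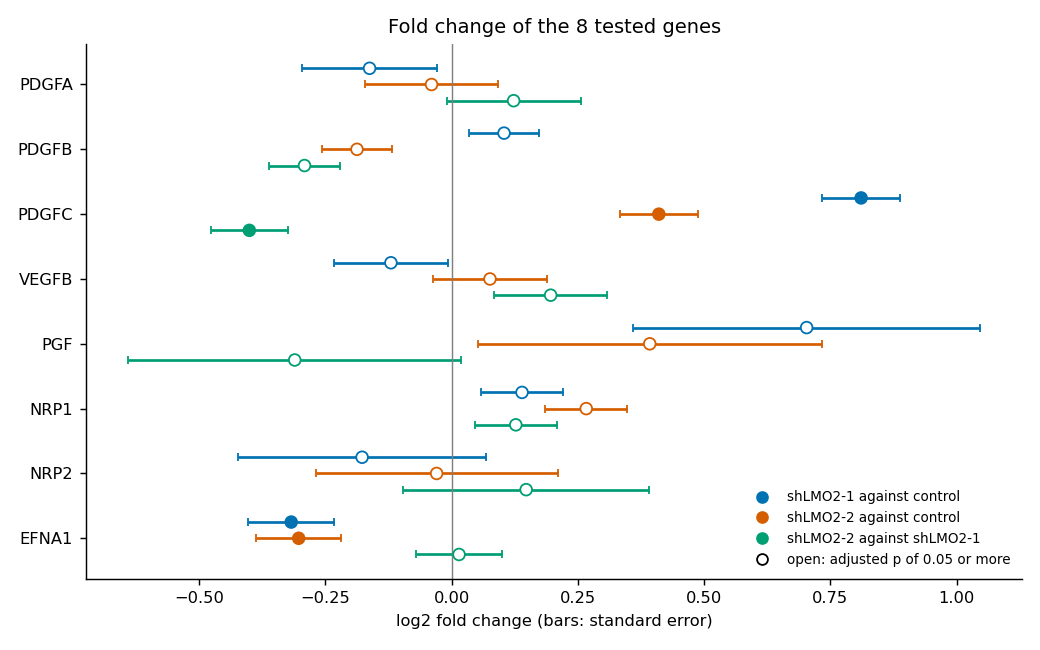
Log2 fold change of the 8 genes that passed the filter on low counts, for each hairpin against control and for shLMO2-2 against shLMO2-1, with bars of 1 SE and filled points for calls. Against control PDGFC lies at 0.81 and 0.41 and EFNA1 at -0.32 and -0.30, and the bars of PGF are the widest.

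Of the 8 genes that passed the filter on low counts, PDGFC and EFNA1 did not overlap between shLMO2-1 and control, where 28.3% of tested genes did not overlap. Between shLMO2-2 and control PDGFB, PDGFC, NRP1 and EFNA1 were apart, where 29.9% of tested genes were apart. All 6 hairpin libraries lay apart from the 3 controls for PDGFC and EFNA1, where 16.7% of tested genes did so. The hairpins were apart from each other for PDGFB, PDGFC and NRP1, where 18.1% of tested genes were. PDGFD was apart in each of these comparisons, but it failed the filter, and the shares cover only genes that passed it.

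Levels were compared between genes only after division by the length of the longest coding transcript. In control VEGFB led with 54.5 ± 8.22 CPM per kilobase, followed by EFNA1 at 30.3 ± 1.65 and PDGFB at 23.1 ± 1.84 (SD, n = 3). PDGFC (10.2 ± 0.839), NRP1 (9.85 ± 0.980) and PDGFA (8.57 ± 0.890) came next, and libraries of neighbours in that group overlapped. NRP2 (0.753 ± 0.132), PGF (0.433 ± 0.111) and PDGFD (0.126 ± 0.0556) were lowest above VEGFC, which was at 0. Under shLMO2-1 PDGFC reached 17.9 ± 0.693 CPM per kilobase and no longer overlapped NRP1, and PDGFB (24.8 ± 0.287) overlapped EFNA1 (24.3 ± 2.04). With the median length of coding transcripts, PDGFB and EFNA1 overlapped in control too (34.9 and 34.6).

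The genes whose levels followed PDGFC most closely over the 9 libraries were VASN, a membrane protein that binds TGF-beta, and FOXC1, a transcription factor of basal-like breast cancer. Their root mean square difference from PDGFC was 0.0667 and 0.0787 log2 units after centring, where the median over 11030 genes was 0.364. Mean levels in control, shLMO2-1 and shLMO2-2 were 15.4, 26.9 and 21.6 CPM for VASN and 50.7, 82.8 and 66.4 CPM for FOXC1. For EFNA1 they were PMS1, a mismatch repair protein, and HBP1, a transcriptional repressor, with differences of 0.0475 and 0.0536 where the median was 0.221. Mean levels were 32.6, 25.2 and 25.8 CPM for PMS1 and 85.6, 68.0 and 67.9 CPM for HBP1. These likenesses are a description over libraries that share their groups.

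Of 6 genes on the receptor list, which includes the receptor-like PDGFRL, 3 passed the filter (KDR, PDGFRA and PDGFRL) and edgeR called 0 in each comparison with control. At an unadjusted p under 0.05, 2 were higher for shLMO2-1 (KDR and PDGFRL) and 1 was lower for shLMO2-2 (PDGFRA). DESeq2 and limma-voom each called KDR as higher under shLMO2-1, and PDGFRA as lower under shLMO2-2 and in the mean. PDGFRA, also named after its values were seen, had 5 to 35 counts a library. In edgeR its log2 fold change was -0.88 (adjusted p = 0.279) for shLMO2-1, -1.68 (adjusted p = 0.0547) for shLMO2-2 and -1.28 (adjusted p = 0.0565) for the mean. KDR, the main VEGFA receptor and 1 of the 12 endothelial markers, named after its values were seen, was at 9.45, 3.74 and 4.86 CPM in control, at 12.4, 12.8 and 10.4 under shLMO2-1 and at 7.48, 8.36 and 6.47 under shLMO2-2. Only shLMO2-1 was apart from control, with a log2 fold change of 0.98 (SE 0.275, adjusted p = 0.0505). PDGFRB had 0 to 7 counts per library, FLT1 0 to 9 and FLT4 0 to 1. Of 11 genes of ligand processing, 8 were tested and edgeR called 2 as higher and 0 as lower in the mean of both hairpins, where 12.4% of all tested genes were called and 6.46% were called as higher. The list's median log2 fold change was 0.16 beside -0.0021 over all tested genes. For each hairpin alone edgeR called 0. At an unadjusted p under 0.05, 4 were higher and 0 lower for shLMO2-1, and 5 were higher and 1 lower for shLMO2-2. DESeq2 called 2 as higher under each hairpin and PLAU as lower under shLMO2-2, whereas limma-voom called 0 under shLMO2-1 and PCSK6 as higher under shLMO2-2. The genes called for the mean were PLAT, a protease that activates PDGFC, and ST14 (matriptase), which can cut PDGFC and PDGFD. Their log2 fold changes were 0.50 (adjusted p = 0.0353) and 0.16 (adjusted p = 0.0366). The call of PLAT was lost without each control library, shLMO2-1 replicate 2 or 3, or shLMO2-2 replicate 1 or 2 (0.43 to 0.53, adjusted p 0.0509 to 0.0927). That of ST14 was lost in 10 of 15 alternative fits (0.12 to 0.19, adjusted p up to 0.104).

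Of 13 semaphorins, plexins and neuropilin partners, 12 were tested, and edgeR called 3 as higher and 0 as lower in the mean of both hairpins, where 12.4% of all tested genes were called and 6.46% as higher. The list's median log2 fold change was 0.165, beside -0.0021 over all tested genes. For shLMO2-1 alone edgeR called 2 as higher, SEMA3A in all 16 alternative fits and GIPC1 in 7 of 16 (adjusted p up to 0.153), and for shLMO2-2 alone 0, where 5 were higher and 0 lower at an unadjusted p under 0.05. For shLMO2-2 DESeq2 called 2 as higher, and limma-voom called 0. For the mean, 4 were higher and 1 lower at an unadjusted p under 0.05, and DESeq2 and limma-voom also called 3 as higher and 0 as lower. SEMA3A, a secreted semaphorin that binds NRP1, was at 6.84, 8.25 and 6.34 CPM in control, at 16.6, 17.4 and 13.4 under shLMO2-1, and at 9.87, 10.3 and 9.52 under shLMO2-2. Every hairpin library was above every control library, with a 2.21-fold rise (adjusted p = 0.000942) under shLMO2-1 and 1.39 times the control level (adjusted p = 0.0641) under shLMO2-2. GIPC1, an adaptor that binds the tail of NRP1, had a log2 fold change of 0.37 for the mean (adjusted p = 0.0270). Its call was lost without control replicate 1 (0.27) or 3 (0.36) and without shLMO2-2 replicate 2 (0.37) or 3 (0.34). SEMA3B had 0.95 (adjusted p = 0.0377), and its call was lost without 7 of the 9 libraries in turn (0.81 to 1.00), all but control replicate 1 and shLMO2-1 replicate 3.

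Of 21 further ephrin and Eph receptor genes, 15 were tested, and edgeR called 3 as higher and 0 as lower under each hairpin, where 8.42% of all tested genes were called for shLMO2-1 (4.54% as higher) and 8.97% for shLMO2-2 (4.94% as higher). The list's median log2 fold change for the mean was 0.14, beside -0.0021 over all tested genes. At an unadjusted p under 0.05, 5 were higher and 0 lower for each hairpin, and DESeq2 and limma-voom also called 3 as higher and 0 as lower. EFNB2, a transmembrane ephrin, was at 71.3, 67.9 and 86.9 CPM in control, at 116, 117 and 114 under shLMO2-1, and at 113, 119 and 110 under shLMO2-2. EPHB2, a receptor of EFNB2, was at 48.9, 39.2 and 39.7 CPM in control, at 70.9, 70.5 and 69.6 under shLMO2-1, and at 71.7, 72.5 and 64.0 under shLMO2-2. EFNB2 and EPHB2 were each higher in all 6 hairpin libraries than in all controls. EFNB2 rose by 0.62 and 0.60 on the log2 scale (adjusted p = 0.00219 and 0.00277), and EPHB2 rose by 0.72 and 0.71 (adjusted p = 0.00108 and 0.00152). EPHB6, an Eph receptor with no kinase activity, rose by 0.58 under shLMO2-2 (adjusted p = 0.000830). Its value of 0.28 under shLMO2-1 (adjusted p = 0.0309) was lost as a call in 11 of 16 alternative fits (0.24 to 0.31).

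**Figure D4:**
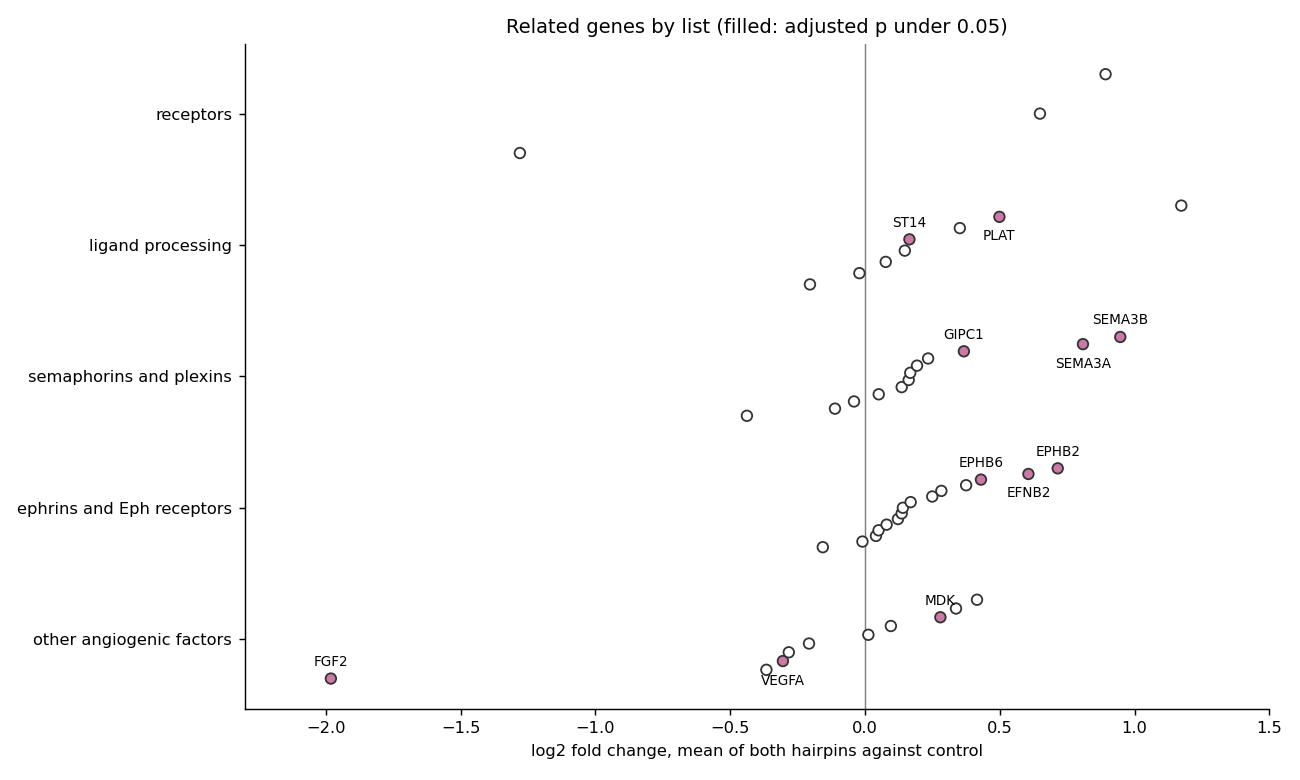
Log2 fold change for the mean of both hairpins against control of every tested gene in the 5 lists of related genes, 1 row of points per list, with called genes filled and named. The called receptors number 0, the called ephrins and Eph receptors (EPHB2, EFNB2 and EPHB6) all lie above 0, and FGF2 lies lowest at -1.98.

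Since EFNB2 and EPHB2 rose together, the 250 bases before their starts are shown, from RefSeq's GRCh38.p14 table, each read 5′ to 3′ on the gene's own strand. Capitals mark the E-box CANNTG, the class of site bound by partners of LMO2. EFNB2 is at chr13:106535663-106535912 (minus strand) and EPHB2 at chr1:22710589-22710838 (plus strand).
EFNB2: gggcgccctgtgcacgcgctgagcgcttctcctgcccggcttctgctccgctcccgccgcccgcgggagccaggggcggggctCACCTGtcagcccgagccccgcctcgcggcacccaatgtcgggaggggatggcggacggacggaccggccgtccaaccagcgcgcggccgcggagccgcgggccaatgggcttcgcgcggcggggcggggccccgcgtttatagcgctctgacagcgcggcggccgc
EPHB2: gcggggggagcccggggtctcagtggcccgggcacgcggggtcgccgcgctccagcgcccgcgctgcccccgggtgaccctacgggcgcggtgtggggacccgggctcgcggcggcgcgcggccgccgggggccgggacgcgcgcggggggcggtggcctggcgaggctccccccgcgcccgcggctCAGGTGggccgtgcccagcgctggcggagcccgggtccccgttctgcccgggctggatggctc
Each window holds 1 match, starting 167 bases before the start of EFNB2 and 63 before that of EPHB2. The motif reads the same on both strands and was found in 61.8% of 35116 such windows. The letters GATA, searched on both strands, were in neither window and in 45.6% of all windows.

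Of 18 other angiogenic factors, 10 were tested, and in the mean of both hairpins 1 was called as higher and 2 as lower, where 12.4% of all tested genes were called (6.46% as higher, 5.92% as lower). The list's median log2 fold change was -0.10, beside -0.0021 over all tested genes. VEGFA, the main vessel growth factor and the closest relative of VEGFB and PGF, was at 90.1, 87.9 and 86.0 CPM in control. It was at 73.3, 57.2 and 70.5 CPM under shLMO2-1 and at 75.7, 78.0 and 73.5 CPM under shLMO2-2. All hairpin libraries were below all controls, and the log2 fold change of the mean was -0.30 (adjusted p = 0.0236), a call lost without control replicate 2 (-0.30) or 3 (-0.32) or shLMO2-2 replicate 3 (-0.30). For single hairpins VEGFA was called under shLMO2-1 (-0.39, adjusted p = 0.0207) and not under shLMO2-2 (-0.22, adjusted p = 0.147), where 0 of 16 alternative fits called it. The call under shLMO2-1 was lost with only the groups compared (-0.40, adjusted p = 0.0568). It was also lost without control replicate 3 (-0.41, adjusted p = 0.0548) and without shLMO2-1 replicate 2 (-0.29, adjusted p = 0.0547). FGF2, a fibroblast growth factor that acts on endothelial cells, had 78, 56 and 60 counts in control, 32, 43 and 16 under shLMO2-1, and 7, 2 and 20 under shLMO2-2. It lies on chromosome 4 at 122826708 to 122898236. FGF2 overlaps AC021205.1 on the same strand, and AC021205.3 and NUDT6 on the opposite strand. The log2 fold change under shLMO2-2 was -3.00 (SE 0.547, adjusted p = 0.00831), and -4.09 without shLMO2-2 replicate 3. Under shLMO2-1 FGF2 was not called (-0.96, adjusted p = 0.248), and 0 of 16 alternative fits called it there. MDK, midkine, a heparin-binding growth factor, had a log2 fold change of 0.28 for the mean (adjusted p = 0.0185). It was called under shLMO2-2 (0.35, adjusted p = 0.0160) and not under shLMO2-1 (0.21, adjusted p = 0.113). The call under shLMO2-2 was lost without each shLMO2-2 library in turn. EDN1, the vessel-constricting peptide endothelin, was called as lower under shLMO2-2 alone (-0.43, adjusted p = 0.0448), a call lost in 10 of 16 alternative fits (-0.48 to -0.28, adjusted p up to 0.152).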

How the data were processed

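Polyadenylated RNA was sequenced, and the authors deposited 1 table of estimated counts per gene for the 9 libraries. The submitters' processing notes name Salmon 0.12, DESeq2 1.22.2 and GRCh38.p12 without a role or order, and the strand setting and annotation are not given in the sources used here. Estimated counts can be divided among overlapping or near-identical genes. Between 11.7% and 12.8% of a library's values were not whole, and all were rounded.

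Groups follow the plasmid in the labels. Tests were edgeR 4.0.16 quasi-likelihood F-tests in R 4.3.3 over all 9 libraries, with TMM scaling, filterByExpr (minimum count 10, minimum total 15) and Benjamini-Hochberg adjustment over 14708 genes. The standard error is the log2 fold change divided by the root of F. CPM used TMM-scaled totals. The script was tested on simulated counts. Alternatives were median-of-ratios scaling, total counts alone, no filter, DESeq2 1.42.0, limma-voom 3.58.1, only the groups compared, a replicate block, and each library left out. Libraries of the same group differed by more than sampling noise.

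The named genes are the 10 genes above, LMO2, up to 4 called genes of each related list (those of smallest p for the mean of the hairpins), and the 2 genes most alike to PDGFC and to EFNA1 among those with a mean of at least 5 CPM. The genes and lists were chosen with earlier results of these data known. Coordinates are from GENCODE 29 (GRCh38), by symbol. Promoter entries from RefSeq (GRCh38.p14) matched 7 of the 10 genes.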

Additional observations from a re-analysis of the deposited data

Results flagged for a closer look

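The level of PDGFC differed between the hairpins by the test of the difference itself, a call that was lost in 7 of 16 alternative fits. Its level was 74.7 ± 2.89 CPM under shLMO2-1 and 56.6 ± 2.58 CPM under shLMO2-2 (SD, n = 3), a log2 difference of -0.40 with an adjusted p of 0.0391 in edgeR's quasi-likelihood test. Without control replicate 3 or any 1 of the 6 hairpin libraries the adjusted p was between 0.0713 and 0.189. Both groups were above control, at 42.6 ± 3.50 CPM (SD, n = 3).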

How the results depend on the processing

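Members called against control numbered 2 for shLMO2-1, 2 for shLMO2-2 and 2 for the mean. Only the groups compared gave 1 for each hairpin, and no filter gave 4 for shLMO2-2, with PDGFD and NRP1 added. Leaving out 1 library gave 1 to 2, 1 to 2 and 1 to 3. Between the hairpins 1 was called, 2 with DESeq2, 2 with only the groups compared, 2 with the replicate block, and 0 to 2 with 1 library left out.

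Genes called numbered 1239 for shLMO2-1 (695 with only the groups compared, 546 to 1397 with 1 library left out), 1319 for shLMO2-2 (777, and 494 to 1243), 1821 for the mean (946 to 1592 with 1 left out) and 113 between hairpins (378 with no filter, 320 with DESeq2, 186 with only the groups compared, 38 to 239 with 1 left out). With the replicate block they numbered 2213, 2375, 3023 and 255. The labels say only that replicates share a number, and libraries of the same number correlated between -0.064 and 0.296 after group means were removed. Not every library correlated best with its own number. Under the block NRP1 became a call for shLMO2-2 (0.27, adjusted p = 0.0245) and for the mean (adjusted p = 0.0374), and PDGFB between hairpins (adjusted p = 0.0468).

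Total counts alone turned the share of higher calls from 53.9% to 41.8% for shLMO2-1, from 55% to 40.6% for shLMO2-2 and from 52.2% to 38.2% for the mean. EDN1 under shLMO2-1 went from 0.01 to -0.026 in that setting. Leaving out 1 library turned the sign of values near 0: EDN1 under shLMO2-1 (-0.093 to 0.17), PDGFA (-0.13 to 0.039), VEGFB (-0.051 to 0.15) and NRP2 (-0.22 to 0.073) under shLMO2-2, PDGFB (-0.094 to 0.013) and VEGFB (-0.15 to 0.054) in the mean, and NRP2 (-0.043 to 0.41) and EFNA1 (-0.040 to 0.087) between hairpins. The cause was not tested. PDGFD and LMO2 had few counts, so their fold changes are imprecise.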

Other observations

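The windows of 250 bases before the RefSeq starts of PDGFA, PDGFD, VEGFB, VEGFC, PGF, NRP2 and EFNA1, 11 starts in all, were rich in G and C, at 68.8% to 82.8% where the median of 35116 windows was 58.0%. Every one of these windows but that of VEGFC overlapped an exon in GENCODE 29, and the part of this in the content of bases and motifs was not tested. The letters GGGCGG, searched on both strands, were in 11 of the 11 and in 42.6% of all windows. E-boxes (CANNTG) were in 8 of the 11 and in 61.8% of all windows, and GATA in 2 of the 11 and in 45.6%. Starts of 1 gene lie close together, so they are not separate observations. The windows of PGF share bases, whereas those of PDGFA do not.

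VEGFB took 45.7% ± 4.44 of the summed counts of VEGFA, VEGFB and PGF in control, 50.4% ± 6.12 under shLMO2-1 and 50.8% ± 1.06 under shLMO2-2 (SD, n = 3). The groups of shLMO2-1 and control overlapped, with 46.2% to 57.4% against 40.6% to 48.4%. The shLMO2-2 libraries, at 49.9% to 52.0%, were all above the controls. Mean levels in control and under shLMO2-2 were 88.0 and 75.75 CPM for VEGFA, and 75.24 and 79.34 CPM for VEGFB. VEGFB was not called under shLMO2-2, so its share there depends on the lower level of VEGFA as well.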
